A study of Mus musculus with 6 samples.

Results

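Genes of cholesterol and fatty acid synthesis were followed in RNA-seq counts of pancreatic islets from 6 male mice fed a high fat diet. The set of 31 named genes was chosen by symbol, 19 for the sterol branch and 12 for the fatty acid branch. Of these, 29 were found among the 11106 genes listed, 18 sterol and 11 fatty acid genes. All 29 passed the filter on low counts, and Hsd17b7 and Scd1 were not analysed here. The 3 knockout mice (knockout 11, 12 and 13) were Ern1fl/fl; VE-cadherin-Cre-ERT2, and the 3 floxed mice (floxed 8, 18 and 19) were Ern1fl/fl littermates. Ern1 encodes IRE1α, an endoplasmic reticulum stress sensor, and the Cre acts in vascular endothelial cells, while the counts are of whole islets with all their cell types. Mice of both genotypes were given 2 mg of tamoxifen on each of 5 days at 4 weeks of age and ate a diet with 60% of its calories as fat for 16 weeks from the age of 8 weeks. The study was set up to ask what endothelial IRE1α does for islets under excess nutrition.

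Cholesterol is built from acetyl-CoA through mevalonate, isoprenoids and squalene, and fatty acids are built from acetyl-CoA through malonyl-CoA. The transcription factors SREBP-2 (Srebf2) and SREBP-1 (Srebf1) drive many of these enzymes. Both are held in the endoplasmic reticulum by SCAP and INSIG proteins while sterols are plentiful and are carried to the Golgi for cleavage when sterols fall. In beta cells, ATP-citrate lyase links glucose metabolism to lipid synthesis, and both cholesterol and fatty acid supply are known to affect insulin secretion.

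Promoter sequence is shown for 4 genes, the 2 of each branch with the smallest unadjusted p among those with an entry in the RefSeq promoter table (GRCm38.p6, the assembly of the authors' mm10 build; 24 of the 29 genes matched). Each window holds 250 bases before and 50 bases after the annotated start, 5′ to 3′ on the gene's strand. Capitals mark matches on either strand to a sterol regulatory element (TCACNCCAC), the CCAAT box (CCAAT, or ATTGG on the other strand), the GC box (GGGCGG) and the E-box (CACGTG). The matches in these 4 windows did not overlap each other.
Hmgcs1 (chr13:119690101-119690400, plus strand): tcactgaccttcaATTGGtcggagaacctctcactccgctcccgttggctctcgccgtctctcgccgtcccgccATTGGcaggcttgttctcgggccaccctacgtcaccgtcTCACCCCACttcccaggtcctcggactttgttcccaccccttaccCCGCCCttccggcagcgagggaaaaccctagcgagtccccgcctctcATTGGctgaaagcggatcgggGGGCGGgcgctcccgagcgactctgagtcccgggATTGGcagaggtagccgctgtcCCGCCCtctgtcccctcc
Dhcr7 (chr7:143822917-143823216, plus strand, the most upstream of 3 windows): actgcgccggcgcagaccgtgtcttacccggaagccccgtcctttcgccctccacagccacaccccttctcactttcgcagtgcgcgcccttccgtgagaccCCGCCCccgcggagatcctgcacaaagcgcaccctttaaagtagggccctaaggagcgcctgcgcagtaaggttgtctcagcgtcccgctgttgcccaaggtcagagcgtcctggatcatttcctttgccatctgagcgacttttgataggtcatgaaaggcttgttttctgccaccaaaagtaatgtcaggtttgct
Elovl6 (chr3:129532136-129532435, plus strand): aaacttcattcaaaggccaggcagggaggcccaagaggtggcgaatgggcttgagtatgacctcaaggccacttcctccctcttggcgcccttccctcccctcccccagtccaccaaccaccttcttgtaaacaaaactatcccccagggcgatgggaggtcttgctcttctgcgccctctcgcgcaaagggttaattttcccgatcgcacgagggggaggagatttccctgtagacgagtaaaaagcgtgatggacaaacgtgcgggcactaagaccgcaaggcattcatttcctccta
Fads2 (chr19:10101454-10101753, minus strand): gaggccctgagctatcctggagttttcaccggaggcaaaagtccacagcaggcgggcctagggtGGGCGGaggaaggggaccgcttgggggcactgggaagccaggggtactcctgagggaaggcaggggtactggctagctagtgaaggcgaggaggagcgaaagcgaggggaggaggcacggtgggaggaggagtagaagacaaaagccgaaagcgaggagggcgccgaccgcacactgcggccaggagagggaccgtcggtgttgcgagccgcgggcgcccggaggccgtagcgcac
The pattern TCACNCCAC searched for the sterol regulatory element matched in Hmgcs1 alone among the 31 windows of the 24 genes. It matched as TCACCCCAC starting 137 bases before the start site, and 1.24% of all 32851 windows in the table held the pattern. The Hmgcs1 window also held 4 CCAAT boxes and 3 GC boxes. The Dhcr7 window shown and the Fads2 window held 1 GC box each, and the Elovl6 window held none of the 4 motifs. Dhcr7 also had CCAAT box and E-box matches, which lay in its windows that are not shown. CCAAT boxes were in 20 of the 31 windows (64.5%, against 37.4% of all windows), GC boxes in 22 (71.0% against 35.7%) and E-boxes in 6 (19.4% against 7.15%). These matches describe the letters only. The absence of a match says nothing about sites with other letters in the same window, or about binding elsewhere.

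Total counts ran from 18470720 to 18957444 per library. CPM are counts scaled to the library total times its TMM scaling factor, which ran from 0.924 (knockout 11) to 1.11 (floxed 18). The number of reads behind 1 CPM therefore differed between libraries. For Acly, 755 CPM in floxed 18 stood for 15732 reads, and 455 CPM in floxed 8 for 7866 reads. The 29 genes ranged from 48 reads (Acat2, knockout 13) to 15732 reads (Acly, floxed 18). Ern1 itself lay between 36.0 and 46.8 CPM in the knockout and between 30.1 and 46.0 CPM in the floxed mice, which in whole islets checks the genotype very little. Among cell type markers, all 23 measured acinar genes had positive fold changes, and their summed share of counts was 12.7% to 18.3% in knockout and 2.89% to 8.56% in floxed islets. Beta cell markers held 30.9% to 39.6% and 43.0% to 46.6%, and the 13 immediate early genes, which respond to tissue handling, 1.05% to 1.17% and 0.149% to 0.778%. Floxed 8 held the highest acinar and immediate early shares of its group. Of 12 adipocyte markers, 9, Adipoq and Plin1 among them, were not analysed here, and the other 3 (Fabp4, Pparg and Lipe) summed to 0.00184% to 0.00267% in knockout and 0.00218% to 0.00328% in floxed islets. Endothelial markers held 0.0464% to 0.0475% in knockout islets, 0.0465% in floxed 8, and 0.0723% and 0.0653% in floxed 18 and 19. Macrophage markers held 0.0155% in knockout 12, 0.00535% and 0.00471% in knockout 11 and 13, and 0.00652% to 0.00865% in floxed islets. In such bulk samples, fewer cells of a type and less RNA per cell cannot be told apart.

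With all 6 libraries, 0 of the 29 genes passed the test between genotypes (edgeR's quasi-likelihood F-test, with p adjusted by Benjamini-Hochberg over 11080 genes and a threshold of 0.05), against 0.406% of all genes tested (0.343% higher and 0.0632% lower). At an unadjusted p below 0.05 there were 7 of the 29, 1 higher and 6 lower in knockout islets, where 17.9% of all genes reached that level (11% higher and 6.96% lower). DESeq2 and limma-voom also called 0 of the 29, where they called 564 and 42 of the 11080 genes. Limma-voom with sample quality weights, which give less weight to libraries that stray, called 5 sterol genes (1 higher and 4 lower) and 1 fatty acid gene (lower), where 15.6% of all genes passed (9.91% higher and 5.73% lower). Fitted log2 fold changes were above 0 for 2 of the 18 sterol genes and 1 of the 11 fatty acid genes, compared with 49.5% of all genes, and below 0 for the other 16 and 10. The median fitted log2 fold change was -0.22 for the sterol genes and -0.11 for the fatty acid genes, beside -0.0029 over all genes tested. Every knockout library lay below every floxed library for 5 sterol genes (10.2% of all genes), and above for 1, Hmgcs1 (14.1% of all genes). The fatty acid genes all overlapped between the groups.

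**Figure D1:**
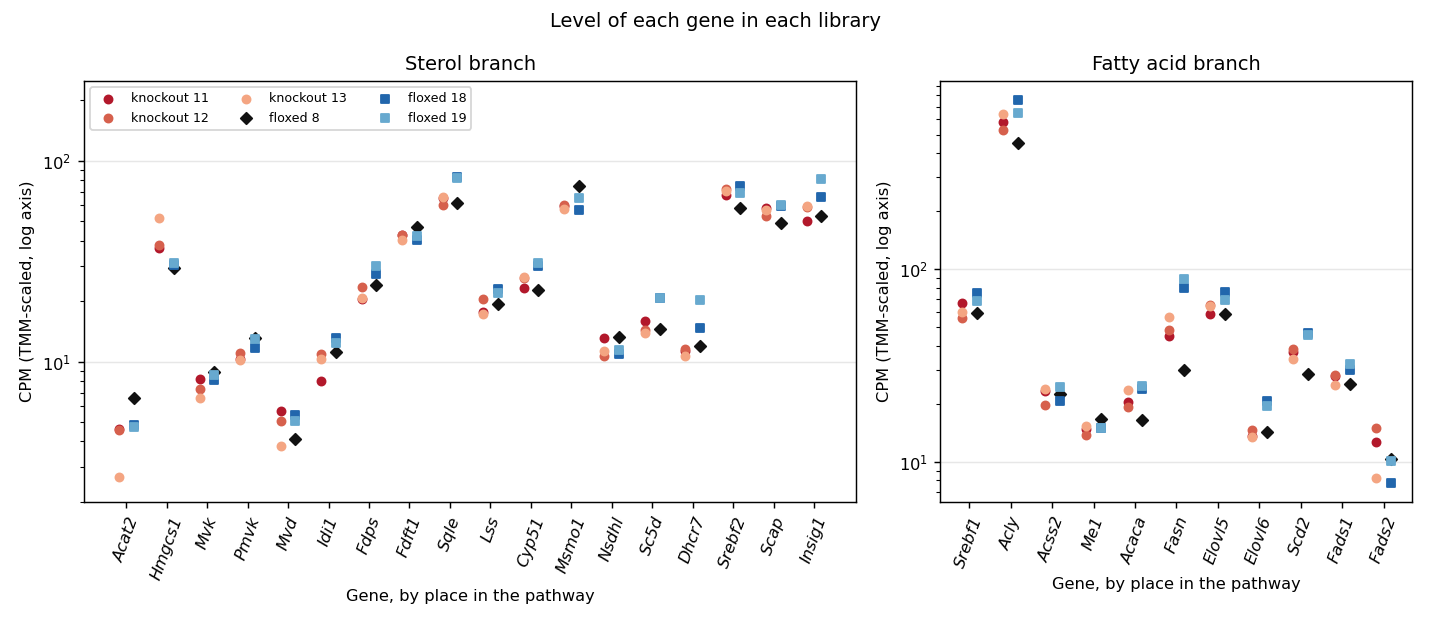
CPM of each of the 29 genes (log axis) in each library, with the knockout libraries as circles on the left and the floxed libraries on the right of each gene name; floxed 8 is the black diamond. Hmgcs1 is the gene whose 3 knockout libraries all lie above the floxed ones, and floxed 8 lies at the bottom of the Fasn column at 30.1 CPM.

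Hmgcs1 had all 3 knockout levels above all 3 floxed levels, without passing the test. It encodes the cytosolic HMG-CoA synthase, which makes the precursor of mevalonate, and lies on chromosome 13 from 119690351 to 119708260. Hmgcs1 had 36.8, 38.2 and 51.9 CPM in the knockout mice 11, 12 and 13 against 29.3, 30.4 and 31.2 CPM in the floxed mice 8, 18 and 19. The 3 floxed mice were close together (SD 0.954 CPM) and the knockout mice were all higher, with knockout 13 the highest. The fitted log2 fold change was 0.48 (SE 0.13, 95% interval 0.18 to 0.78), with an edgeR adjusted p of 0.125. Without knockout 13 the value was 0.30, and without floxed 8 it was 0.45 (adjusted p = 0.0853). Antisense transcript Gm48342 covers 12.1% of the merged exons of Hmgcs1, and its reads could be mixed in, since the sources used here do not say whether counting used the strand.

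The 5 enzymes from mevalonate kinase to farnesyl diphosphate synthase had fitted values below 0, and none passed the test. Fdps, which makes farnesyl diphosphate, the branch point to sterols and prenylated proteins, had 20.6, 23.6 and 20.9 CPM in the knockout mice 11, 12 and 13 against 24.0, 27.4 and 29.9 CPM in the floxed mice 8, 18 and 19. The groups did not overlap, with knockout 12 just below floxed 8. The fitted log2 fold change was -0.32 (SE 0.11, 95% interval -0.57 to -0.07, edgeR adjusted p = 0.183), and 26.7% of its merged exons are shared with the annotated gene Gm43738 on the same strand. Idi1, the isomerase that makes the active isoprene unit, had 8.05, 10.9 and 10.3 CPM in the knockout mice against 11.2, 13.1 and 12.4 CPM in the floxed mice in the same order, a log2 fold change of -0.33. Pmvk, phosphomevalonate kinase, had 10.3, 11.01 and 10.2 CPM in the knockout mice against 13.2, 11.7 and 12.9 CPM in the floxed mice, a log2 fold change of -0.26. The groups did not overlap for either gene, with edgeR adjusted p of 0.272 and 0.268. Acat2, the cytosolic thiolase that starts the pathway, was the lowest of the set in reads, at 4.63, 4.57 and 2.67 CPM in the knockout mice against 6.59, 4.85 and 4.73 CPM in the floxed mice. Its log2 fold change of -0.44 (edgeR adjusted p = 0.384) rested on small gaps and was -0.23 without knockout 13 and -0.28 without floxed 8, and its counts and those of Idi1 and Fdft1 were partly not whole numbers. Mvk, mevalonate kinase, and Mvd, the decarboxylase that follows Pmvk, overlapped between the groups with log2 fold changes of -0.21 and -0.0089.

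A ratio of 2 genes within a library does not depend on the scaling of libraries. The ratio of Hmgcs1 to Fdps counts, chosen after the values were seen and given without a test, was 1.79, 1.61 and 2.49 in knockout 11, 12 and 13 and 1.22, 1.11 and 1.04 in floxed 8, 18 and 19. It was higher in each of the 3 knockout libraries than in the floxed ones, floxed 8 included, and as a raw count ratio it also carries the different lengths of the genes.

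From squalene to cholesterol, the 8 measured enzymes all had values below 0, from -0.49 (Dhcr7) to -0.0249 (Nsdhl), with a median log2 fold change of -0.19. Dhcr7, which reduces 7-dehydrocholesterol in the last step to cholesterol, had 11.2, 11.6 and 10.6 CPM in the knockout mice 11, 12 and 13 against 11.9, 14.6 and 20.2 CPM in the floxed mice 8, 18 and 19. The knockout libraries were tight and just under floxed 8, and floxed 19 was the highest. Its fitted log2 fold change was -0.49 (SE 0.18, 95% interval -0.90 to -0.07, edgeR adjusted p = 0.215), and without floxed 19 it was -0.25. Sc5d, the desaturase of the step before, had 16.0, 14.3 and 13.9 CPM in the knockout mice, then 14.5 CPM in floxed 8, with 20.6 and 20.8 CPM for floxed 18 and 19. Floxed 8 thus lay inside the knockout range, and the log2 fold change of -0.34 had an edgeR adjusted p of 0.277. Sqle, squalene epoxidase, a rate-limiting enzyme of the later pathway, also had floxed 8 within the knockout range, with 65.4, 60.3 and 66.0 CPM in the knockout mice, then 61.6 CPM in floxed 8, with 83.6 and 82.0 CPM for floxed 18 and 19 (log2 fold change -0.25).

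The other enzymes from squalene to cholesterol had smaller fitted differences, although that of Lss was close to that of Sqle. Lss, which folds squalene epoxide into lanosterol, and Cyp51, which takes a methyl group off lanosterol, had log2 fold changes of -0.22 and -0.14, with floxed 18 and 19 above every knockout library and floxed 8 within the knockout range for Lss and below it for Cyp51. Msmo1, which removes further methyl groups, was highest in floxed 8 (75.1 CPM), and the other libraries ran from 56.9 to 65.6 CPM. Nsdhl, which acts beside it, and Fdft1, squalene synthase, had log2 fold changes of -0.0249 and -0.0463, with 95% intervals from -0.32 to 0.27 and from -0.25 to 0.16. The cathepsin gene Ctsb on the opposite strand covers 18.3% of the Fdft1 exons.

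The regulators did not share a direction. Srebf2 had a log2 fold change of 0.0572 (95% interval -0.18 to 0.29), which turned to -0.0413 when libraries were scaled by their totals. Scap, the escort of both SREBPs, averaged 56.2 ± 2.57 CPM over the knockout mice against 56.3 ± 6.21 CPM over the floxed mice (SD, n = 3). Insig1, which retains SCAP and is itself a target of SREBP, had 50.1, 59.0 and 59.8 CPM in the knockout mice 11, 12 and 13 against 53.1, 66.5 and 80.9 CPM in the floxed mice 8, 18 and 19. The groups overlapped through floxed 8, and the fitted log2 fold change was -0.25 (95% interval -0.59 to 0.10, edgeR adjusted p = 0.438), and it was -0.0868 without floxed 19 and -0.39 without floxed 8.

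**Figure D2:**
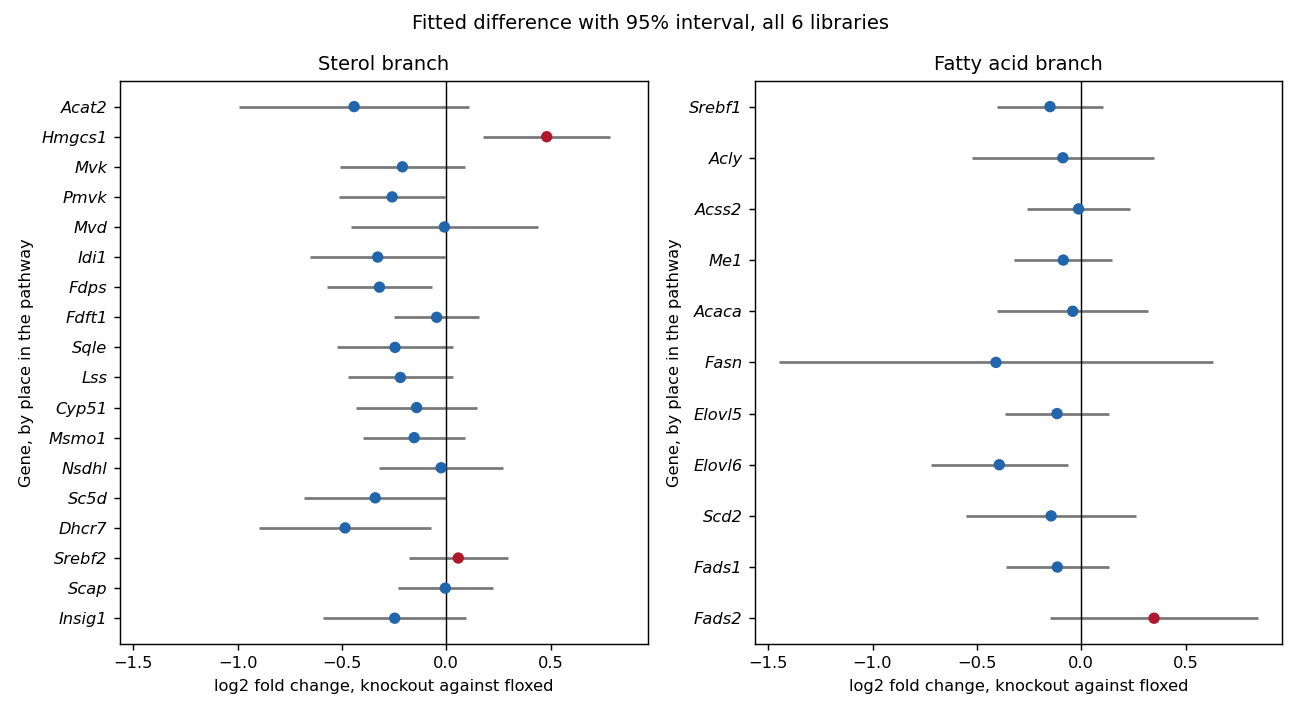
Fitted log2 fold change of each gene, knockout against floxed, as a point (red above 0, blue below 0) with its 95% interval as a line, from all 6 libraries. Most points lie left of 0, Hmgcs1 lies right of 0 at 0.48, and the widest interval is that of Fasn, from -1.45 to 0.63.

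In the fatty acid branch 0 of 11 genes passed the test, and floxed 8 stood apart from the other floxed mice for many of them. Fasn, fatty acid synthase, had 44.9, 48.4 and 56.5 CPM in the knockout mice 11, 12 and 13, then 30.1 CPM in floxed 8, with 79.5 and 88.9 CPM for floxed 18 and 19. The knockout libraries thus lay between floxed 8 and the other floxed libraries, and the coefficient of variation was 47.7% among floxed and 11.9% among knockout mice. The fitted log2 fold change was -0.41 (SE 0.41, 95% interval -1.45 to 0.63, edgeR adjusted p = 0.661), and it was -0.26 without floxed 18, -0.14 without floxed 19 and -0.76 without floxed 8. Acaca, acetyl-CoA carboxylase, which makes malonyl-CoA for Fasn, had 20.5, 19.2 and 23.5 CPM in the knockout mice, then 16.4 CPM in floxed 8, with 23.8 and 24.6 CPM for floxed 18 and 19 (log2 fold change -0.0405). Its order of libraries was like that of Fasn with a smaller range.

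Of the genes that supply acetyl-CoA and NADPH, Acly, ATP-citrate lyase, was by far the highest in the set. It had 579, 529 and 641 CPM in the knockout mice 11, 12 and 13, then 455 CPM in floxed 8, with 755 and 649 CPM for floxed 18 and 19, a log2 fold change of -0.0878 (95% interval -0.53 to 0.35). Per kilobase of merged exon, Acly had 114 CPM, followed by Insig1 (19.9 CPM), the elongase gene Elovl5 (18.6 CPM) and Sqle (12.6 CPM), and Acaca was lowest with 1.25 CPM per kilobase. The ranges over libraries of Insig1 and Elovl5 overlapped on this scale, and merged exons understate genes with many annotated isoforms. Acss2, which makes acetyl-CoA from acetate, and Me1, the malic enzyme that makes NADPH, had log2 fold changes of -0.0125 and -0.0858, with 95% intervals from -0.26 to 0.24 and from -0.32 to 0.15.

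Elovl6, which lengthens palmitate to stearate, had the smallest unadjusted p of the branch. It had 13.5, 14.7 and 13.5 CPM in the knockout mice 11, 12 and 13, then 14.3 CPM in floxed 8, with 20.8 and 19.5 CPM for floxed 18 and 19. Floxed 8 lay within the knockout range, and the fitted log2 fold change was -0.39 (SE 0.15, 95% interval -0.72 to -0.06, edgeR adjusted p = 0.208). Elovl5, the elongase of polyunsaturated fatty acids, and Srebf1, counted as a total over its isoforms, had log2 fold changes of -0.12 and -0.15 with the same place of floxed 18 and 19 above every knockout library.

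Among the desaturases, Scd2, a stearoyl-CoA desaturase, had 37.0, 38.6 and 34.0 CPM in the knockout mice, then 28.6 CPM in floxed 8, with 46.7 and 45.8 CPM for floxed 18 and 19 (log2 fold change -0.14). Fads1 and Fads2, the delta-5 and delta-6 desaturases of polyunsaturated fatty acids, lie near each other on chromosome 19. Fads1 had a log2 fold change of -0.11. Fads2 had 12.7, 14.9 and 8.23 CPM in the knockout mice against 10.3, 7.78 and 10.1 CPM in the floxed mice, the only positive value of the branch (log2 fold change 0.35, 95% interval -0.15 to 0.85, edgeR adjusted p = 0.451), and knockout 13 lay among the floxed libraries. The value was 0.15 without knockout 12, 0.55 without knockout 13 and 0.23 without floxed 18.

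**Figure D3:**
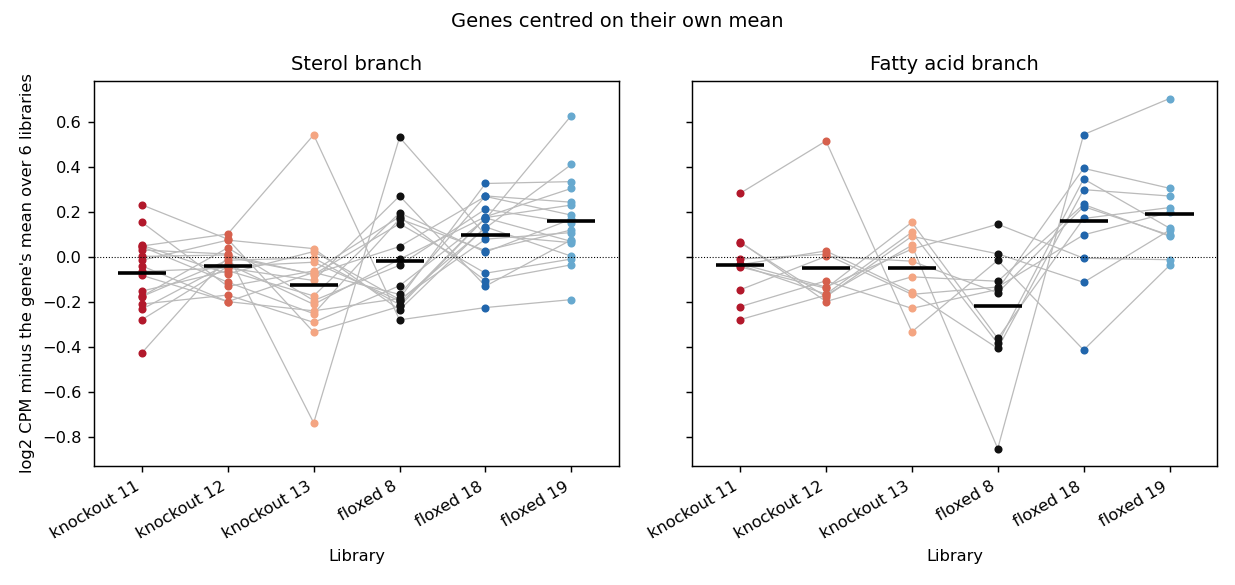
Log2 CPM of each gene minus its own mean over the 6 libraries, by library, with grey lines joining a gene and black bars at the mean of the branch. In the fatty acid branch the bar of floxed 8 is at -0.22 and those of floxed 18 and 19 are at 0.16 and 0.19, while the knockout bars lie between -0.05 and -0.03.

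Floxed 8 was the lowest of the 3 floxed libraries for 8 of 11 fatty acid genes and 12 of 18 sterol genes, compared with 38.0% of all genes. It was the lowest of all 6 libraries for 5 fatty acid genes and 4 sterol genes, and for 2438 of the 11080 genes tested. Both floxed 18 and floxed 19 lay above every knockout library for 8 of 11 fatty acid genes and 11 of 18 sterol genes, compared with 21.9% of all genes. The mean over the fatty acid genes on the log2 CPM scale was 5.17, 5.16 and 5.16 for the knockout mice 11, 12 and 13, 4.99 for floxed 8, with 5.37 and 5.40 for the other floxed mice. For the sterol genes these means were 4.37, 4.40 and 4.32 for the knockout mice, 4.43 for floxed 8, with 4.54 and 4.60 for the other floxed mice. The floxed library below the knockout libraries in the fatty acid mean was thus above them in the sterol mean.

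Without floxed 8, 5 sterol genes and 3 fatty acid genes passed the test, all lower in knockout islets, in a table where 14.3% of all genes then passed (8.59% higher and 5.7% lower). Among sterol genes, Fdps, Sqle, Sc5d, Dhcr7 and Insig1 fell by 0.40, 0.38, 0.50, 0.65 and 0.39 on the log2 scale (edgeR adjusted p between 0.00895 and 0.0367). Among fatty acid genes, Fasn, Elovl6 and Scd2 fell by 0.76, 0.54 and 0.34 (edgeR adjusted p = 9.4e-04, 0.00481 and 0.0221). Hmgcs1, at 0.45, did not pass there. Floxed 8 was nearer to the knockout libraries than to floxed 18 and 19 in its immediate early and endothelial shares, and this fit compares 3 mice with 2. The acinar and immediate early shares moved with genotype, as given above. With the mean acinar level as a covariate the median fitted log2 fold change was -0.14 for sterol and 0.22 for fatty acid genes, and with the immediate early level -0.0362 and 0.15, with 0 of the 29 genes called in either fit (edgeR; 0 and 115 genes in the whole table).

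**Figure D4:**
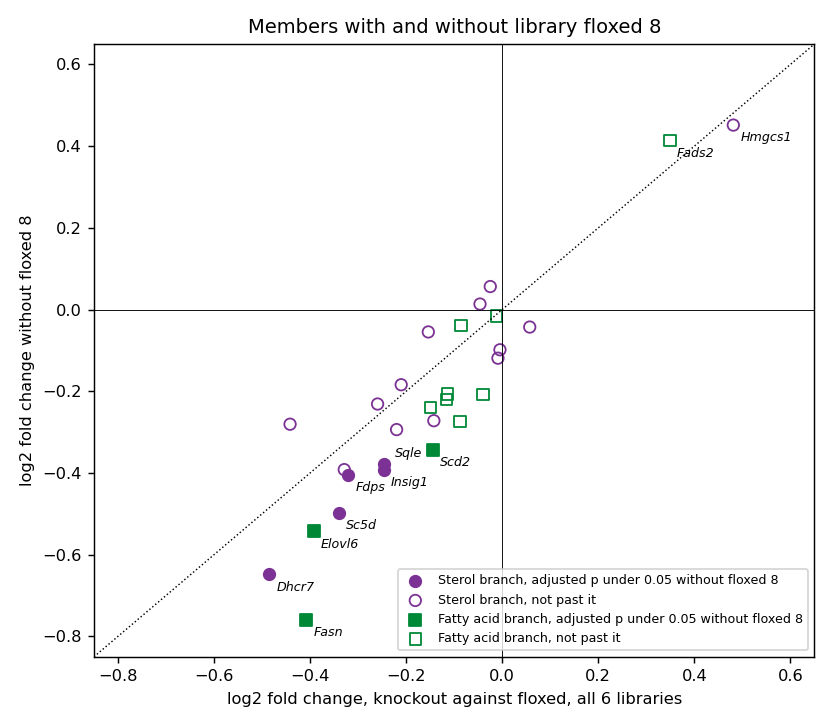
Log2 fold change of each gene, knockout against floxed, with all 6 libraries (horizontal axis) and without floxed 8 (vertical axis); circles are sterol and squares fatty acid genes, filled where the adjusted p without floxed 8 was below 0.05, and the dotted line marks equal values. Fasn moved from -0.41 to -0.76, and Hmgcs1 from 0.48 to 0.45.

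Other genes of the same pathways were read from lists of known members. Of 16 further genes of sterol synthesis, regulation and uptake, 0 passed, 5 had positive and 11 negative values, and the median fitted log2 fold change was -0.0913. Tmem97, the sigma-2 receptor and a sterol-responsive membrane protein, had 35.6, 64.4 and 31.8 CPM in the knockout mice 11, 12 and 13 against 17.5, 12.6 and 19.1 CPM in the floxed mice 8, 18 and 19 (log2 fold change 1.43, SE 0.31, edgeR adjusted p = 0.105). All its knockout libraries lay above the floxed ones, with knockout 12 the highest. Erg28, a scaffold of sterol demethylation, had a log2 fold change of -0.56, and Lbr, a nuclear envelope protein with sterol reductase activity, one of 0.20 (edgeR adjusted p = 0.247 and 0.428). Npc1, which moves cholesterol out of lysosomes, was fitted at 0.18 (edgeR adjusted p = 0.517). Without floxed 8, 0 of the 16 were higher and 2 lower past the threshold, where 8.59% of all genes were higher and 5.7% lower.

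Of 10 genes of cholesterol export and of LXR, the nuclear receptor that responds to oxysterols, 0 passed, with 3 positive and 7 negative values and a median of -0.14. Lpcat3, which puts polyunsaturated fatty acids into phospholipids, had 36.0, 34.6 and 32.2 CPM in the knockout mice against 43.2, 48.2 and 45.0 CPM in the floxed mice. The groups were apart, floxed 8 included, with a log2 fold change of -0.41 (SE 0.0881, edgeR adjusted p = 0.0758), and Emg1 on the opposite strand covers 10.2% of its exons. Arl4c, a small GTPase gene induced by LXR, was fitted at 0.91 and Abcg1, a sterol exporter gene, at -0.22 (edgeR adjusted p = 0.0941 and 0.293), and Nceh1, a cholesterol ester hydrolase, at -0.24. Abca1, another exporter driven by LXR, had 0.23, so that genes of the list known as LXR targets had values of both signs. Without floxed 8, Arl4c was higher (1.06) and Lpcat3 and Nceh1 were lower (-0.45 and -0.35) past the threshold, with edgeR adjusted p of 0.00986, 0.00598 and 0.0155. These 3 of 10 genes stand beside 8.59% of all genes higher and 5.7% lower.

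Of 19 measured further genes of fatty acid synthesis, 0 passed, 5 had positive and 14 negative values, and the median fitted log2 fold change was -0.17. Hacd3, a dehydratase of the elongation cycle, had 15.2, 15.7 and 15.5 CPM in the knockout mice, then 15.6 CPM in floxed 8, with 25.9 and 26.6 CPM for floxed 18 and 19 (log2 fold change -0.56, edgeR adjusted p = 0.185). Floxed 8 lay within the knockout range, as for Elovl6. Elovl2 and Elovl1, elongases of long polyunsaturated and of saturated chains, and Slc25a1, the mitochondrial citrate carrier that feeds Acly, had log2 fold changes of -0.36, -0.26 and -0.25, with every knockout library below every floxed library for each and edgeR adjusted p of 0.217, 0.2297 and 0.234. The knockout libraries all lay below the floxed ones for 5 of the 19 genes, and for 10.2% of all genes. Without floxed 8, 1 of the 19 was higher and 2 were lower past the threshold, against the same 8.59% and 5.7% of all genes.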

How the data were processed

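The authors deposited estimated counts per gene for the 6 islet libraries, not normalized. The tools fastp, HISAT2 and StringTie and the build mm10 are named, per the submitters' processing notes, and the sources used here give no versions, counting rule or strand setting. Per the labels, DNBSEQ-T7 libraries were made from total RNA. The deposited counts held decimals for 1422 of 11106 genes and were rounded. Genes were kept by filterByExpr (minimum count 10, minimum total 15; 11080 kept), scaled by TMM and tested with edgeR 4.0.16 in R 4.3.3 (quasi-likelihood, robust, no covariate), with Benjamini-Hochberg adjustment over all genes and a threshold of 0.05. Standard errors come from the F statistic, and intervals are at 95%. Log2 CPM carry a prior count of 2. Limma 3.58.1 and DESeq2 1.42.0 were alternatives. Each library was counted as 1 mouse, by its label. Libraries of a group were compared pairwise, and their chi-square per gene was 20.3 or more, far above sampling noise. That value cannot by itself show that the mice were separate. The labels name no batch or pairing, so these cannot be told apart from genotype.

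The members, lists and alternatives were chosen with earlier results of these data known. All members are named, and in each further pathway list up to 4 genes with the smallest unadjusted p; Abca1 was added after its value was seen, and 1 further gene of the sterol list is not reported here. Merged exons and overlaps come from GENCODE M21 (GRCm38), gene coordinates and promoters from RefSeq (GRCm38.p6). On simulated data of this comparison (11072 genes tested), 89% of the 100 genes given a log2 change of 1 and 97% of the 100 given a change of 2 were recovered, and 20 of 206 called genes had not been changed. Smaller changes were not simulated, and the member value furthest from no change was -0.49 (Dhcr7). These shares therefore do not show how often changes of the members' size would be recovered. The simulation also gave no library a departure such as that of floxed 8. With a design of 3 against 3 mice, p-values set the difference between the groups against the variation between mice, estimated from these mice only.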

Additional observations from a re-analysis of the deposited data

How the results depend on the processing

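No paired analysis was possible because the labels name no pairing of knockout with floxed mice. The count of genes called in the whole table was 45 and moved to 564 with DESeq2, 1733 with limma-voom quality weights, 0 with the acinar covariate (edgeR; 920 at an unadjusted p below 0.05; DESeq2 without the covariate called 564), 115 with the immediate early covariate and 1393 without both knockout 12 and floxed 8. With single libraries left out it ran from 0 (without knockout 11 or knockout 13; edgeR, 1861 and 1204 at an unadjusted p below 0.05) to 1584 (without floxed 8), with 8 without knockout 12, 18 without floxed 18 and 16 without floxed 19. The sterol genes called went from 0 to 5 and the fatty acid genes from 0 to 3 over single left-out libraries, both upper values without floxed 8. With quality weights 5 sterol genes (Hmgcs1 higher; Fdps, Sqle, Sc5d and Dhcr7 lower) and 1 fatty acid gene (Elovl6) were called, against 15.6% of all genes, and without both knockout 12 and floxed 8 there were 6 and 3. The sterol median of -0.22 was -0.31 with library totals, where the median of all genes was -0.0919, -0.14 with the acinar covariate, -0.0362 with the immediate early covariate and -0.29 without both libraries, and stayed below 0 in each of the 18 alternatives. The fatty acid median of -0.11 was 0.22 and 0.15 with the acinar and immediate early covariates and below 0 in the other alternatives, and over single left-out libraries it ran from -0.22 (without floxed 8) to -0.0533 (without floxed 19), with -0.0654 without floxed 18. The cause of these moves was not tested.

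Signs turned as follows, on the log2 scale. With the acinar covariate the values were 0.4988 for Mvd, 0.15 for Sqle, 0.0108 for Lss, 0.15 for Cyp51, 0.16 for Sc5d, 0.24 for Scap, 0.23 for Srebf1, 0.59 for Acly, 0.38 for Acaca, 0.68 for Fasn, 0.22 for Elovl5, 0.11 for Elovl6, 0.52 for Scd2 and 0.11 for Fads1. With the immediate early covariate they were 0.31 for Mvd, 0.12 for Sqle, 0.202 for Cyp51, 0.11 for Sc5d, 0.24 for Scap, 0.13 for Insig1, 0.0980 for Srebf1, 0.46 for Acly, 0.44 for Acaca, 0.94 for Fasn, 0.15 for Elovl5, 0.0354 for Elovl6, 0.46 for Scd2 and 0.12 for Fads1. Library totals gave Srebf2 -0.0413, limma-voom gave Scap 8.8e-04, and quality weights gave Nsdhl 0.0191 and Srebf2 -0.00123. Without both libraries, Nsdhl was 0.11, Srebf2 -0.0695, Acss2 0.0608 and Me1 0.00146. Over single left-out libraries the ranges were -0.14 to 0.14 for Mvd, -0.0930 to 0.0134 for Fdft1, -0.12 to 0.0563 for Nsdhl, -0.0429 to 0.14 for Srebf2, -0.0985 to 0.0496 for Scap, -0.27 to 0.0793 for Acly, -0.0714 to 0.0687 for Acss2 and -0.21 to 0.0626 for Acaca. Hmgcs1 and Fads2 were above 0, and Acat2, Mvk, Pmvk, Idi1, Fdps, Msmo1 and Dhcr7 below 0, in each of the 18 alternatives. The sizes varied, from -0.68 to -0.0324 for Dhcr7, from -0.48 to -0.12 for Fdps and from 0.0613 to 0.55 for Fads2. Depth did not limit most members, but Acat2 and Mvd rested on 48 to 114 reads per library.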

Other observations

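The genes that join fatty acids into glycerolipids had no common direction. Of 13 measured, 0 passed the edgeR test, where 0.406% of all genes passed, and 0 passed without floxed 8, where 14.3% did. At an unadjusted edgeR p below 0.05 there were 1 higher and 1 lower, beside 11% and 6.96% of all genes. Fitted values were positive for 8 and negative for 5, and the median fitted log2 fold change was 0.0110. Gpam, the mitochondrial acyltransferase of the first step, had 13.3, 18.1 and 15.5 CPM in the knockout mice 11, 12 and 13 against 10.9, 12.2 and 12.5 CPM in the floxed mice 8, 18 and 19, with a log2 fold change of 0.40 and an edgeR adjusted p of 0.180. Every knockout library lay above every floxed library for Gpam and Acsl4 (14.1% of all genes) and below for Agpat1 (10.2% of all genes). Agpat1, the acyltransferase of the second step, averaged 67.8 ± 2.28 CPM over the knockout mice against 79.3 ± 5.65 CPM over the floxed mice (SD, n = 3, log2 fold change -0.23, edgeR adjusted p = 0.218). Lpin2, a phosphatidate phosphatase, and Acsl4, an acyl-CoA synthetase that prefers arachidonate, had log2 fold changes of 0.25 and 0.13.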
